A study of Mus musculus with 20 samples.

Results

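Microtubule-severing ATPases cut microtubules along their length. Across the brains of Katnal2-KO and WT mice, 7 genes of this family and its regulators were followed. The genes were taken from a list of names: the catalytic katanins Katnal2, Katna1 and Katnal1, the katanin regulatory protein gene Katnbl1, Spast (spastin), Fign (fidgetin) and Fignl1 (fidgetin-like 1). They are 7 of the 19463 genes in the table, and all 7 were detected in each of the 20 mice and passed the filter on low values in every comparison. All 7 are called severing-enzyme genes here, although Katnbl1 encodes a regulatory protein and not an ATPase. For Katnal2, the paper states that microtubule severing has not been directly seen.

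Severing enzymes of the AAA ATPase family assemble into a ring that grips the acidic tail of tubulin, often marked by polyglutamate chains, and pull tubulin out of the microtubule wall. Neurons use this cutting to remodel microtubules in growing axons and dendrites, and ciliated cells use it around basal bodies and axonemes. Loss of spastin is a well-known cause of hereditary spastic paraplegia, a disease of long axons.

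RNA from the whole brain of C57BL/6J mice was sequenced at 3 weeks (P21) and 10 weeks (P70), with 5 WT and 5 Katnal2-KO mice at each age. KO mice were homozygous for a deletion of exon 3 of Katnal2, made from the Katnal2tm1a(EUCOMM)Wtsi allele by Flp and then by Cre protein given to embryos, so the deletion was present in every tissue. All KO mice descend from this 1 allele on a C57BL/6J background, and WT mice carried no deletion. Values are counts per gene that the authors normalized across the 20 mice together. Because tissue was taken whole, fewer cells of a type and less RNA per cell cannot be told apart.

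The P70 mice numbered 5 in both genotypes stood apart from the other libraries. Their highest correlation with a mouse of their own group was 0.968 in KO and 0.977 in WT, against 0.986 to 0.991 in the other 18 mice, and they correlated at 0.988 with each other. In these 2 libraries, longer transcripts had lower values than in the rest of their group, with a correlation across genes of -0.287 in KO and -0.284 in WT. The trend was not theirs alone. In the other 18 mice it ran from -0.247 to 0.157, and P21 mouse 3 had -0.247 in WT and -0.186 in KO. Results that rest on the P70 mice numbered 5 are given with and without them. The depth, estimated from the spacing of low values, was 26000000 to 36000000 reads at P21 and 23300000 to 27700000 at P70. These ranges overlap, and the estimate is rough. Only 11.1% to 41.2% of low values lay near whole multiples of 1 read, with a median of 15.6% at P21. Evenly spread values would also give a small share. The size of 1 read was searched only near 1 unit, which bounds the depths. If depth differed between the ages as estimated, age and depth cannot be told apart. Neuron markers were abundant in every mouse, with a summed value of at least 125080.0 for Snap25, Syt1, Rbfox3, Slc17a7 and Gad1. No gene of the marker lists was at 0 in any mouse.

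No severing-enzyme gene passed the threshold for a genotype difference, an age difference or an interaction when all mice were used. The differences nearest to it at P21 were in Fignl1, whose mean was 45.0% higher in KO mice, and in Katnal2, whose mean was 17.1% lower. Katna1 was highest in P70 WT mice, and every one of them lay above every P21 WT mouse. Among all genes, 10.8% likewise had no overlap between the ages in WT mice. Katnal1 was higher at P70 than at P21 in both genotypes once the mice numbered 5 were set aside. P21 mouse 3, with a length trend of the same sign and the lowest P21 values of Katnal1, was kept. In those smaller sets 17.0% of all genes were called by age in WT mice and 21.3% in KO mice.

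Per kilobase of annotated exon, the order of levels was Spast, Katnal1, Katna1, Katnbl1, Katnal2, Fign and Fignl1. The means over 20 mice on this scale were 251 normalized counts per kb for Spast, 223 for Katnal1, 120 for Katna1, 73.7 for Katnbl1, 26.1 for Katnal2, 18.3 for Fign and 4.10 for Fignl1. At P21 the ranges of neighbours in this order did not overlap in either genotype. At P70 the ranges of Spast and Katnal1 overlapped, as did those of Katnal2 and Fign, in both genotypes. With the length of a single coding transcript in place of all exons, Katnal1 came before Spast and the other 5 genes kept their order.

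**Figure D1:**
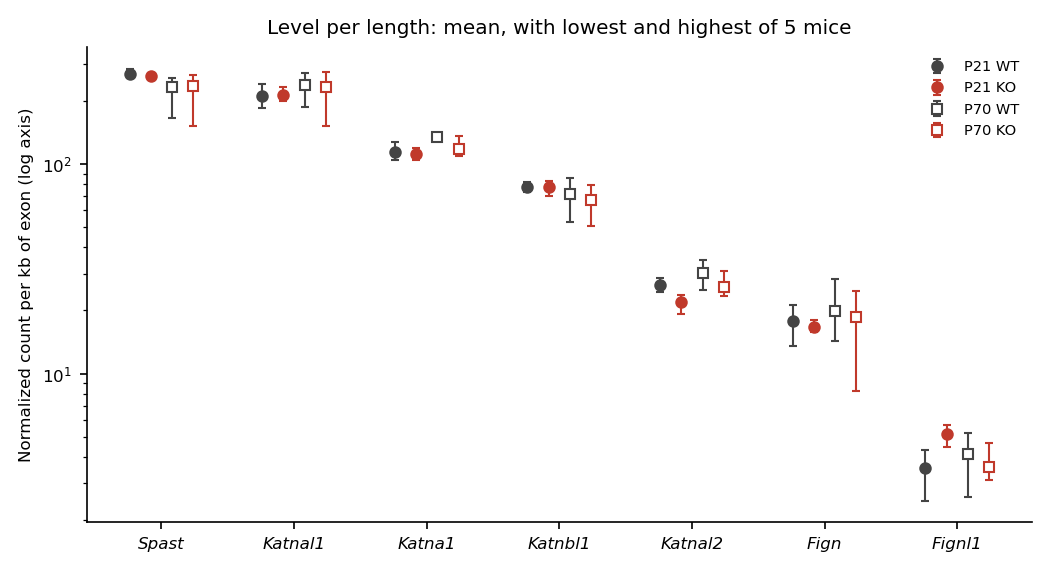
Normalized count per kb of annotated exon for the 7 severing-enzyme genes, on a log axis, with the mean (symbol) and the lowest and highest of 5 mice (bars) in each group; circles are P21, squares are P70, dark is WT and red is KO. Levels run from 251 per kb for Spast to 4.10 per kb for Fignl1 as means over 20 mice, and the bars of Spast and Katnal1 overlap at P70.

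**Figure D2:**
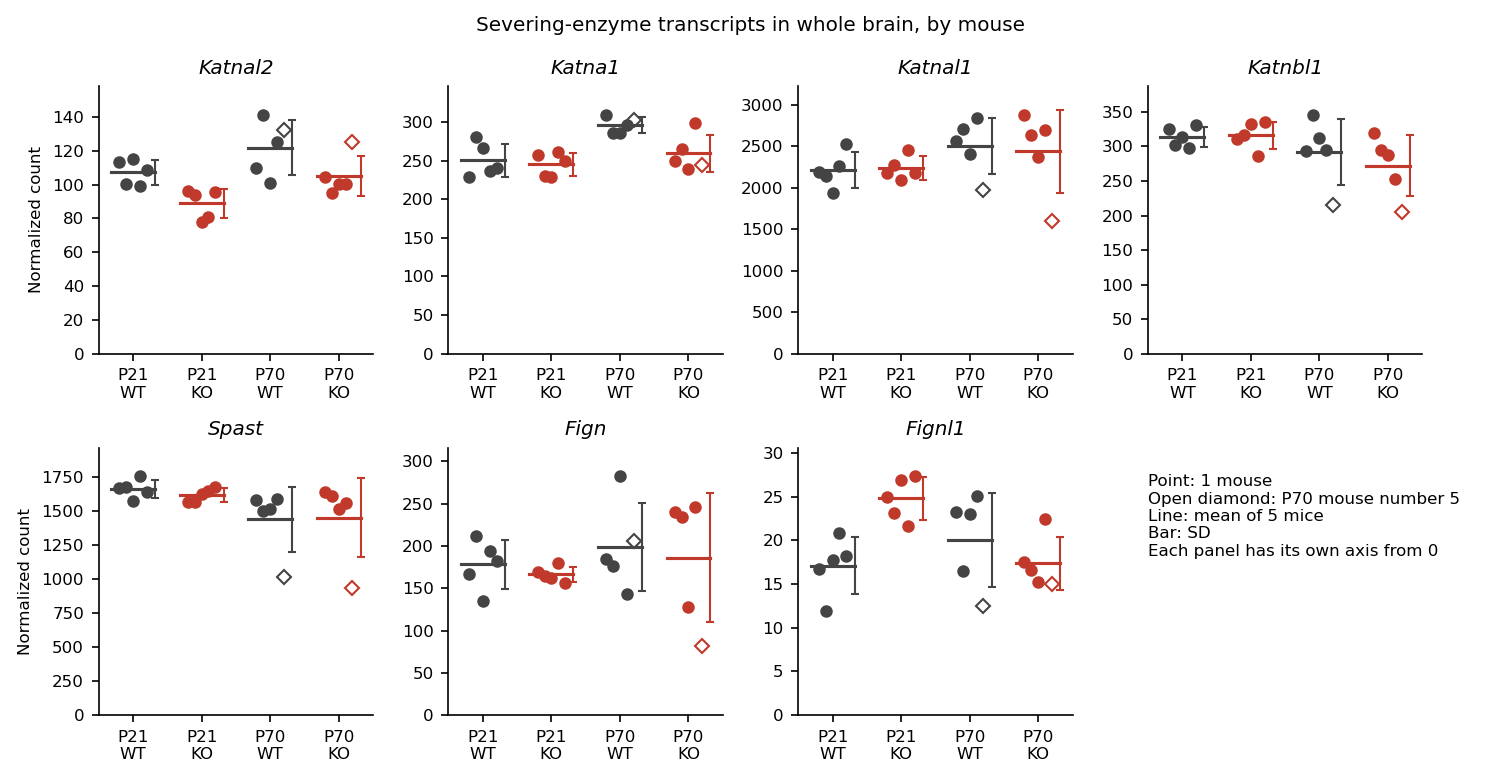
Normalized count of each severing-enzyme gene in each of the 20 mice, with the mean (line) and SD (bar) of 5 mice per group, on an axis from 0 for each gene; open diamonds are the P70 mice numbered 5. The diamonds are the lowest P70 points of their genotype for Katnal1, Katnbl1, Spast and Fignl1. The P21 KO points of Fignl1 all lie above the P21 WT points, and 0.460% of all genes had no overlap between the genotypes at P21.

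Katnal2 encodes katanin-like 2, a catalytic katanin known from spermatogenesis and cilia, and is the gene deleted here. It lies on the minus strand of chr18:76977148-77047308 (GRCm38). The deleted exon 3 makes up 167 of the 1942 bases of the coding transcript with the longest reading frame, or 8.60%. Of 11 annotated transcripts 6 hold this exon, as do 4 of the 6 coding ones. The deposited value counts reads from the whole gene, so it is no check of the deletion itself.

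Katnal2 at P21 was 96.0, 94.0, 78.1, 81.0 and 95.9 normalized counts in the 5 KO mice and 113, 100.2, 115, 99.3 and 108 in the 5 WT mice. At P70 it was 104, 95.1, 100.3, 100.4 and 125 in KO mice and 109.8, 141, 101, 125 and 132 in WT mice. The genotypes did not overlap at P21, where the highest KO mouse lay just under the lowest WT mouse, and they overlapped at P70. Among all genes, 0.460% had no overlap between the genotypes at P21. The difference KO minus WT at P21 was -0.27 on the log2(value + 1) scale (SE 0.10), with an unadjusted limma p of 0.0207 and a Benjamini-Hochberg adjusted p of 0.9999. The exact two-sided permutation p was 0.00794, the smallest that relabelling 5 and 5 mice can give. At P70 the difference was -0.21 (95% interval -0.49 to 0.07), with an exact permutation p of 0.0794. Without both mice numbered 5 it was -0.24 (95% interval -0.53 to 0.05), with an exact permutation p of 0.0571. The KO mean was 0.829 of the WT mean at P21 and 0.862 at P70. From P21 to P70 the difference was 0.18 in WT mice and 0.24 in KO mice, with exact permutation p-values of 0.119 and 0.0238. Without KO mouse 5, the highest of its group, the difference in KO mice was 0.17 and the exact permutation p 0.0714.

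KATNAL2 is found in ciliated cells, so the markers of such cells are given beside it. The 12 ependymal markers summed to 876 to 1111 in P21 WT mice and 1012 to 1434 in P21 KO mice, and 11 of 12 had a positive difference KO minus WT at P21 and 10 of 12 at P70, with 0 of 12 called at either age. The 10 choroid plexus markers all had a positive difference at both ages, with 0 called. Their part in the level of Katnal2 was not tested.

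Katna1 encodes p60, the founding catalytic subunit of katanin, and lies on the plus strand of chr10:7726000-7763150. At P21 it was 257, 229.8, 229, 261 and 249.7 in KO mice and 228, 280.1, 266, 237 and 241 in WT mice. Its P70 values were 249.8, 265, 239.7, 299 and 245 in KO mice and 309.6, 286, 286, 296 and 303 in WT mice. The genotypes were mixed at P21, whereas at P70 4 of 5 KO mice lay below every WT mouse and KO mouse 4 lay among the WT mice. The P70 difference KO minus WT was -0.19 (95% interval -0.39 to -0.00095), with an unadjusted limma p of 0.0491 (adjusted p 0.9999) and an exact permutation p of 0.0317. Without both mice numbered 5 it was -0.16, with an exact permutation p of 0.114.

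In WT mice Katna1 was higher at P70 than at P21 by 0.24 on the log2(value + 1) scale (SE 0.09). The ages did not overlap, as for 10.8% of all genes. The adjusted p of Katna1 by limma was 0.0967 and its exact permutation p 0.00794. In KO mice the age difference was 0.08, with overlapping ages and an exact permutation p of 0.310. The difference between these 2 age differences, tested as the interaction, was -0.17 with an unadjusted limma p of 0.152, so it was not shown to depend on genotype. Katna1 shares 12.5% of its 31-base words with other annotated genes, chiefly Gm6524 and the overlapping antisense gene Gm20470, so its reads may be split among them, and no strand setting is given that would tell the antisense reads apart.

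Katnal1 encodes katanin-like 1, a close relative of p60, on the minus strand of chr5:148871584-148929320. At P21 it was 2177, 2274, 2096, 2458 and 2173 in KO mice and 2187, 2143, 1939, 2259 and 2526 in WT mice. At P70 it was 2879, 2635, 2365, 2699 and 1599 in KO mice and 2566, 2706, 2403, 2842 and 1970.1 in WT mice. The genotypes were mixed at both ages, and the mouse numbered 5 was the lowest of each P70 group. The genotype difference was 0.02 at P21 (95% interval -0.13 to 0.16) and -0.05 at P70 (95% interval -0.39 to 0.28).

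With all mice, the age difference of Katnal1 was 0.17 in WT mice (adjusted limma p 0.324) and 0.10 in KO mice (adjusted limma p 0.736). With the mice numbered 5 set aside, Katnal1 rose with age by 0.25 in WT mice (95% interval 0.09 to 0.41, adjusted limma p 0.0340) and by 0.24 in KO mice (95% interval 0.10 to 0.38, adjusted limma p 0.0167). The exact permutation p was 0.0238 in each genotype, with 4 mice at P70 and 5 at P21. Of all genes tested in these smaller sets, 17.0% were called in WT mice and 21.3% in KO mice. The sets of P21 and P70 mice still overlapped. P21 mouse 3, whose length trend had the same sign, was kept in these sets. It had the lowest P21 value of Katnal1 in each genotype, 1939 in WT and 2096 in KO. The age difference without P21 mouse 3 as well was not computed, so the rise depends on which libraries are set aside. Katnal1 shares 8.43% of its 31-base words with other genes, chiefly Gm42791 and the antisense gene Gm43600.

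Katnbl1 encodes a protein that binds the catalytic katanins, on the plus strand of chr2:112379211-112414240. At P21 it was 311, 317, 333, 286 and 335 in KO mice and 326, 302, 313, 298 and 331 in WT mice. Its P70 values were 320.0, 295, 287, 252.2 and 206 in KO mice and 294, 346, 312, 295 and 215 in WT mice. Genotypes overlapped at both ages, with differences of 0.01 at P21 and -0.10 at P70. The 2 lowest of all 20 mice were the P70 mice numbered 5. The age difference was -0.12 in WT mice and -0.23 in KO mice, and without those mice it was -0.01 and -0.13. Its share of 31-base words found in other genes was 12.9%, chiefly in the overlapping gene model Gm21985 and in Gm17377.

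Spast encodes spastin, which cuts microtubules where they meet the endoplasmic reticulum, endosomes and the midbody, on the plus strand of chr17:74338987-74391115. At P21 it was 1568, 1571, 1631, 1652 and 1677 in KO mice and 1669.9, 1677, 1579, 1759 and 1639.7 in WT mice. At P70 it was 1639, 1612, 1514, 1564 and 938 in KO mice and 1584, 1501, 1517, 1589.7 and 1017 in WT mice. Apart from mouse 5 in each P70 group, all values of Spast lay within 1501 to 1759. The genotype difference was -0.04 at P21 (95% interval -0.14 to 0.06) and 0.0018 at P70 (95% interval -0.37 to 0.37). Without the mice numbered 5, the interval at P70 was -0.08 to 0.14 around a difference of 0.03.

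The age difference of Spast in WT mice was -0.23 with all mice (adjusted limma p 0.228, exact permutation p 0.0238) and -0.10 without mouse 5 (adjusted limma p 0.169, exact permutation p 0.0317). In KO mice it was -0.18 with all mice and -0.03 without mouse 5. The value in mouse 5 was 40.9% below the median of the other 4 mice in KO and 34.4% below it in WT. Among all genes, 11.0% in KO and 10.1% in WT lay further below the median of the other 4 mice than Spast did in mouse 5.

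The 250 bases before the start of Spast and of Fignl1 are shown because these genes are the most and the least abundant of the 7 per kilobase of exon. They are RefSeq sequences of the build GRCm38.p6, read 5′ to 3′ on the strand of the gene, at chr17:74338737-74338986 on the plus strand for Spast and chr11:11808963-11809212 on the minus strand for Fignl1. Capitals mark the GC box GGGCGG, searched on both strands.
Spast: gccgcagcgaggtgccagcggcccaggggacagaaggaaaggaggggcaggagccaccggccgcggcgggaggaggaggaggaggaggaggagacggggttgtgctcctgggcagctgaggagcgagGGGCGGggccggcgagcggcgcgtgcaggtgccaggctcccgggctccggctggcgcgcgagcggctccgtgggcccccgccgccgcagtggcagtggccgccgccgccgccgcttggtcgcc
Fignl1: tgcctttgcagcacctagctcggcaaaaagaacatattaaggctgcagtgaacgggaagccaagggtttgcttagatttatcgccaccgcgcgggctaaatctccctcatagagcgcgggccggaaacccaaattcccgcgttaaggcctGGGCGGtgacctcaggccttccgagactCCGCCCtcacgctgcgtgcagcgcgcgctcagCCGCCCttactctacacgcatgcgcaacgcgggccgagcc

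Entries were given for 4 of the 7 genes, Spast, Fignl1, Katnal1 and Fign. Their GC content was 78.8%, 61.2%, 67.2% and 72.4%, against a median of 52.4% over 32851 promoters. The GC box occurred 3 times before Fignl1 and once before Spast, and 32.7% of all promoters of this length hold it. The letters GTTGCC, part of the site of RFX factors, occurred once before Katnal1, on the opposite strand, and 10.4% of all promoters hold them. The CCAAT box, held by 33.8% of promoters, and the TATA box TATAAA, held by 12.4%, were not among the letters of any of the 4 windows. Neither were the CRE TGACGTCA, held by 1.55%, nor the E2F motifs TTTGGCGC and TTTCCCGC, held by 0.417% and 0.895%. The Katnal1 window runs back from the RefSeq start and lies inside the GENCODE M21 span of the gene, where it overlaps annotated exons. None of the motifs overlap each other in these windows.

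Fign encodes fidgetin, which trims dynamic microtubules in neurons and at the spindle, on the minus strand of chr2:63971507-64098038. At P21 it was 169.5, 165, 162, 179.8 and 157 in KO mice and 167, 212, 135, 194 and 182 in WT mice. Its P70 values were 241, 235, 128, 247 and 81.9 in KO mice and 185, 176, 283, 143 and 206 in WT mice. In KO mice Fign had the widest spread of the 7 genes at P70, with a coefficient of variation of 40.9% with all mice and 26.6% without mouse 5, against 5.26% at P21. The P70 difference KO minus WT was -0.18 (95% interval -0.84 to 0.48) with all mice and 0.11 (95% interval -0.40 to 0.62) without the mice numbered 5. KO mouse 5 was the lowest of the 20 mice, whereas WT mouse 5 lay within its group. No direction can be read for Fign from these mice.

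Fignl1 encodes fidgetin-like 1, which works in DNA repair and also acts on axonal microtubules, on the minus strand of chr11:11787431-11808962. At P21 it was 25.0, 23.1, 26.9, 21.6 and 27.3 in KO mice and 16.8, 11.9, 17.8, 20.8 and 18.2 in WT mice. At P70 it was 17.5, 16.5, 15.3, 22.5 and 15.0 in KO mice and 23.3, 16.5, 23.0, 25.1 and 12.5 in WT mice. Every P21 KO mouse lay above every P21 WT mouse, and the genotypes overlapped at P70. Among all genes, 0.460% had no overlap between the genotypes at P21. The mouse numbered 5 was the lowest of each P70 group. If 1 read was worth about 0.772 to 1.18 of these units, as in the rough depth estimate, each value rests on few reads.

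The difference KO minus WT of Fignl1 at P21 was 0.53 on the log2(value + 1) scale (95% interval 0.11 to 0.94). Its unadjusted limma p was 0.0163, its adjusted p 0.9999 and its exact permutation p 0.00794. Leaving out any 1 mouse kept it between 0.41 and 0.60. At P70 the difference was -0.17 (95% interval -0.70 to 0.36) with all mice and -0.27 (95% interval -0.83 to 0.28) without the mice numbered 5. Leaving out any 1 mouse kept it between -0.32 and -0.083. With all mice, the interaction was -0.70 with an unadjusted limma p of 0.0255 and an adjusted p of 0.9999. The age difference of Fignl1 in KO mice was -0.50 on this scale (adjusted limma p 0.133, exact permutation p 0.0159), and in WT mice it was 0.20 with all mice and 0.35 without mouse 5. Without the mice numbered 5 the interaction was -0.80 (unadjusted limma p 0.0102, adjusted p 0.99995) and the age difference in KO mice -0.45 (exact permutation p 0.0159).

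Dividing cells use FIGNL1 in repair, so their markers are given beside it. The 5 dividing cell markers summed to 231 to 330.5 in P21 KO mice and 183 to 335 in P21 WT mice, which overlap. They summed to 88.1 to 159 in P70 KO mice and 124 to 189 in P70 WT mice, and with age 2 of 5 fell in WT mice and 3 of 5 in KO mice by adjusted limma p, where 9.32% and 8.32% of all genes were called. Without the mice numbered 5, 2 of 5 fell in WT mice and 4 of 5 in KO mice, where 17.0% and 21.3% were called. Their part in the level of Fignl1 was not tested.

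By genotype, 0 of the 7 genes were called at either age by limma with Benjamini-Hochberg adjustment, and among all genes 0% were called at P21 and 0% at P70. The paper, which used DESeq2 and a fold-change cutoff, reports small sets of genes that differ by genotype at both ages. The 0% holds for limma on normalized values and does not show that no gene differed. At an unadjusted p under 0.05, Fignl1 and Katnal2 passed at P21, where 2.44% of 17610 genes did, and Katna1 passed at P70, where 1.13% of 17613 genes did. Groups did not overlap for 2 of the 7 genes at P21, Fignl1 and Katnal2, against 0.460% of all genes, and for 0 of 7 at P70, against 0.193%. Katnal2 is the gene deleted in KO mice, and the 7 genes were chosen with earlier results known. These counts are therefore descriptions and no test of the family. The median difference over the 7 genes was -0.03 at P21 and -0.17 at P70, beside medians over all genes of 0.0042 and -0.0047. At P70, 6 of the 7 differences were below 0. Without the mice numbered 5, 0 of the 7 had an unadjusted limma p under 0.05 at P70, 4 of the 7 differences were below 0 and their median was -0.11. With all mice, 28 exact permutation tests were run over the 7 genes and 4 comparisons, and the permutation p-values given here are not adjusted for their number.

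**Figure D3:**
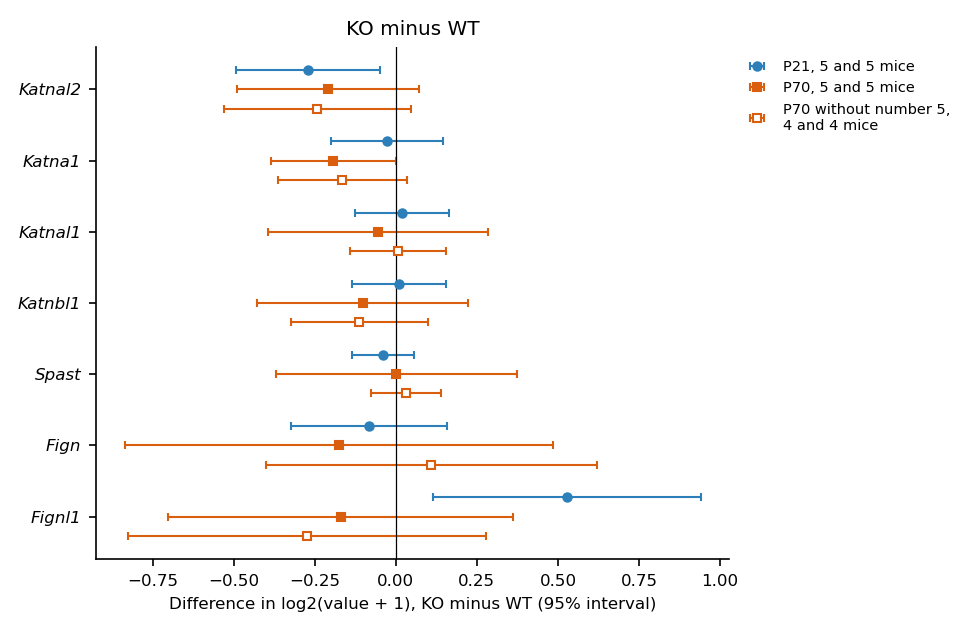
Difference in log2(value + 1), KO minus WT, with its 95% interval from limma, for the 7 severing-enzyme genes at P21 (blue circles), at P70 (filled orange squares) and at P70 without the mice numbered 5 (open squares). The P21 intervals of Katnal2 (-0.27) and Fignl1 (0.53) do not reach 0, and the P70 intervals of Katnal1, Spast and Katnbl1 are narrower without the mice numbered 5.

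By age, 0 of the 7 genes were called in WT mice, where 9.32% of all genes were, and 0 of 7 in KO mice, where 8.32% were. At an unadjusted p under 0.05, Katna1 passed in WT mice and Fignl1 in KO mice, against 24.5% and 22.7% of all genes. The ages did not overlap for Katna1 in WT mice, where 10.8% of genes did not, and for 0 of the 7 genes in KO mice, where 10.9% did not. The median age difference over the 7 genes was 0.17 in WT mice and 0.04 in KO mice, beside 0.0015 and -0.01 over all genes. Without the mice numbered 5 it was 0.14 in WT mice and 0.098 in KO mice. For the interaction 0 of 7 genes were called by limma, as for 0% of all genes, and Fignl1 alone had an unadjusted p under 0.05, as did 1.68% of all genes.

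**Figure D4:**
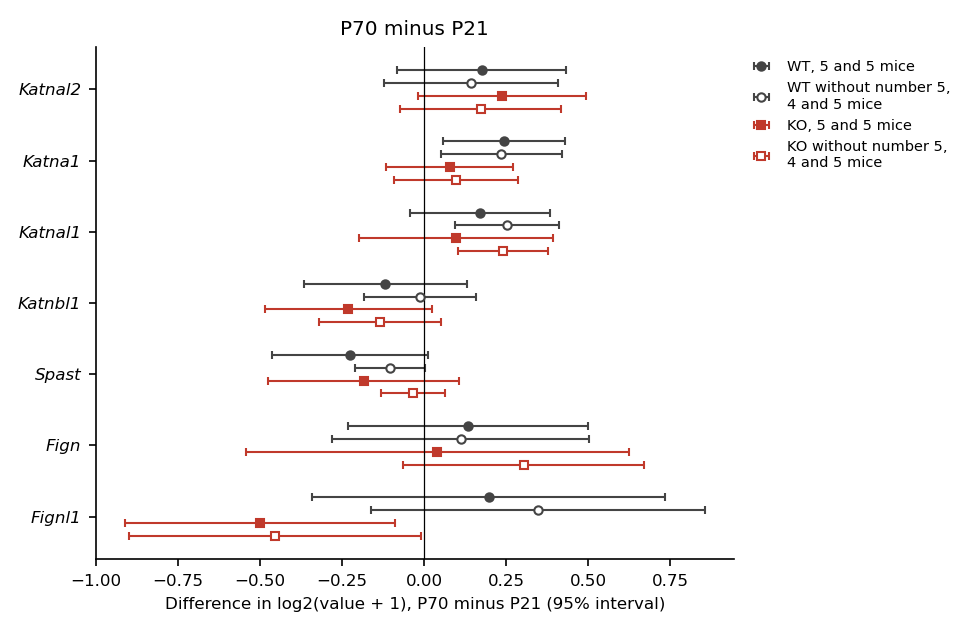
Difference in log2(value + 1), P70 minus P21, with its 95% interval from limma, in WT mice (dark circles) and KO mice (red squares); open symbols leave out the P70 mouse numbered 5. The intervals of Katnal1 lie above 0 in both genotypes only without that mouse, where the differences are 0.25 in WT and 0.24 in KO.

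Between mice of a group, the 7 genes did not share 1 pattern. After the mean of the 5 mice of each group was subtracted, Katnal1 and Spast correlated at 0.885 over the 20 mice. Over the 18 mice without those numbered 5, with the same group means kept, they correlated at 0.630. Values over the 18 therefore still depend in part on the mice numbered 5. Katnbl1 and Spast correlated at 0.817 and 0.355, and Katnal1 and Katnbl1 at 0.706 and 0.224. Katnal2 correlated below 0 with each of the other 6 genes over the 20 mice, from -0.139 with Katna1 to -0.607 with Fign, and with 4 of them over the 18. The median over all 21 pairs of genes was 0.130 over the 20 mice and 0.046 over the 18. The points share libraries, and these values are descriptions.

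The mice numbered 5 did not shift the 7 genes alike. In KO mouse 5, Katnal1 was 40.0% below the median of the other 4 mice, Katnbl1 29.3% below and Fign 65.6% below, whereas Katnal2 was 25.0% above. In WT mouse 5, Katnal1 was 25.3% below, Katnbl1 29.0% below and Fignl1 46.1% below, whereas Katnal2 was 12.8% and Fign 14.1% above. Katna1 stayed within 5 percent of that median in both mice.

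The genes whose log2 values followed each severing enzyme most closely over the 20 mice were listed by Pearson's r. The closest to Spast was Serinc1 (0.983), then Itfg1 and Tm9sf2, and the closest to Katnal1 was Sesn3 (0.949), then Lonrf2 and Cbx5. For Katnbl1 they were Lgalsl (0.914), Gosr1 and Sypl, and for Katna1 they were Ythdc1 (0.756), Zfp7 and BC065397. For Fign they were Tab3 (0.808), Gm48027 and Gm37310, and for Fignl1 they were Sspn (0.738), Vsir and Taf7. For Katnal2 they were Zfp689 (0.821), 1700018L02Rik and Vps13d, and after the group means were subtracted they were Gm49396 (0.796), AC166575.1 and Nudt17. These are the highest of many values over mice that share age, genotype and the libraries that stood apart.

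Of 26 genes whose products recruit, assist or oppose the severing enzymes, 0 were called by genotype at either age or for the interaction by limma. With all mice, 0 of the 26 had an unadjusted p under 0.05 in these comparisons. Their median difference KO minus WT was -0.0040 at P21 and -0.03 at P70. The 2 with the smallest p at P21 were Fignl2, a fidgetin relative, at 0.24 (adjusted limma p 0.9999), and Camsap3, which holds microtubule minus ends, at -0.11. At P70 they were Ttll6, a tubulin polyglutamylase, at 0.58 (adjusted limma p 0.9999), and Vps4b, a related ATPase of the ESCRT machinery, at -0.19.

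By age, 1 of the 26 rose and 1 fell in WT mice, and 1 rose and 2 fell in KO mice, against the shares of 9.32% and 8.32% called among all genes. Mapt, which encodes tau, a protein that coats axonal microtubules and shields them from katanin, was 11189 to 12879 in P21 WT mice and 14416 to 15452 in P70 WT mice, with no overlap. It rose by 0.28 in WT mice (adjusted limma p 0.0075) and by 0.24 in KO mice (adjusted limma p 0.0178). Reep1, which shapes the endoplasmic reticulum and binds spastin and atlastin, fell by 0.22 in WT mice (adjusted limma p 0.0373) and fell by 0.22 in KO mice (adjusted limma p 0.0329). Aspm, a spindle pole protein that binds katanin, fell by 1.05 in KO mice (adjusted limma p 0.0350), and its difference in WT mice was -0.66. Its interaction, -0.40, had an adjusted limma p of 0.9999. Over the same ages the 6 mature oligodendrocyte markers all fell in both genotypes, by a median of -1.13 in WT mice and -1.35 in KO mice, and their part in these age differences was not tested.

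Without the mice numbered 5, 3 of the 26 rose and 2 fell with age in WT mice, and 3 rose and 7 fell in KO mice, where 17.0% and 21.3% of all genes were called. Mapt and Reep1 were among them in both genotypes. Ttll4, a tubulin polyglutamylase of neurons, rose by 0.35 in WT mice (adjusted limma p 0.0189) and by 0.30 in KO mice (adjusted limma p 0.0031). Ndel1, a dynein regulator that also binds katanin, rose by 0.18 in both (adjusted limma p 0.0247 in WT and 0.0167 in KO). Atl1, which encodes the spastin partner atlastin, fell by 0.21 in both (adjusted limma p 0.0085 in WT and 0.0167 in KO). Aspm, Zfyve27, Chmp1b, Fignl2 and Atat1 also fell in KO mice, by between -0.94 for Aspm and -0.18 for Zfyve27, and none of the 26 was called for the interaction.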

How the data were processed

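Per the labels and the paper's methods, the authors purified poly-A RNA, quantified transcripts with Salmon 1.1.0 (GRCm38, GC bias corrected) and summed them to genes through tximport; DESeq2 1.26.0 in R 3.6.2, by the submitters' processing notes, gave the normalized values. The annotation release and any strand setting are not given in the sources used here. The deposited signal values are these normalized counts, 19463 genes by 20 mice, and 0 columns were left unmapped. A count test needs whole reads, which could not be recovered: 11.1% to 41.2% of low values lay within 0.05 of a whole multiple of 1 read. Groups came from the sample labels.

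The 7 genes and all gene lists were chosen with earlier results of these data known. Named genes were the 7 members, the partner genes with the 2 smallest p-values or an adjusted p under 0.05 in a comparison, and the 3 genes closest to each member by Pearson's r over 20 mice. Names, coordinates and lengths came from GENCODE M21, which matched 19447 genes.

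Tests used limma 3.58.1 under R 4.3.3 on log2(value + 1), with a variance trend in eBayes. Genes whose mean in the mice of a fit was under 10 were dropped, with Benjamini-Hochberg adjustment over those left (threshold 0.05). This scale understates differences of low genes. Each pair of groups was fitted on its own mice and the interaction on all 20. Nothing says that mice came from separate litters, so p-values measure the spread between these mice. Permutation tests were exact, two-sided and on the same scale. Exact permutation tests without the P70 mice numbered 5, and the counts of list genes without them, were added after seeing the data. Depth was estimated from the spacing of low values, with the size of 1 read searched only near 1 unit, and is approximate. Python 3.11.15, numpy 2.4.6, pandas 2.3.3 and scipy 1.17.1 were used for the rest. The single values of 1 gene of the partner list are not reported here.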

Additional observations from a re-analysis of the deposited data

Results flagged for a closer look

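Spast in 1 mouse of each P70 group lay far from the other 4. In WT mice the lowest value was 1016.958, next to 1501, and in KO mice it was 938.303, next to 1514. In both groups this is the mouse numbered 5, whose library stood apart across genes. Of 28 groups of 5 mice tested over the 7 genes, 2 were marked in this way, and chance marks about 1 in 20.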

How the results depend on the processing

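With all mice, 0 of the 7 genes were called in the 5 comparisons, and this held without the mean filter, with a pseudocount of 5, with quantile normalization and with rescaled values. With a mean of at least 50, Fignl1 was not tested and 0 of the other 6 were called. In WT mice 1 was called by age in a single fit of all groups, Katna1 (adjusted limma p 0.0499), and in KO mice 1 was called by age without the intensity trend, Fignl1 (adjusted limma p 0.0274). Over the settings tried, the genes called by age numbered 1265 to 3000 in WT mice and 913 to 3759 in KO mice. In the main fits they were 9.32% and 8.32% of all genes. Without both P70 mice numbered 5, 1 of the 7 was called by age in each genotype, Katnal1, the genes called were 3000 in WT mice and 3759 in KO mice, and by genotype at P70 1 gene was called, Gm28438. Leaving them out also turned Katnal1 to 0.0075 and Fign to 0.11 by genotype at P70, in limma and in the exact permutation test, and the interaction of Fign to 0.19. Quantile normalization turned Katnbl1 at P21 to -0.0040. The cause of these shifts was not tested.

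Leaving out 1 mouse, the genes called numbered 0 to 1 by genotype at P21 (Lenep without KO mouse 4, Spats2l without WT mouse 3), 912 to 3000 by age in WT mice and 896 to 3759 by age in KO mice. The lowest counts came without P21 mouse 4 of each genotype (in KO mice also 943 without P21 mouse 1 and 957 without P21 mouse 2) and the highest without P70 mouse 5. Among the 7 genes 0 to 1 were called by age in either genotype, Katnal1 without mouse 5. Signs turned for differences near 0. By genotype at P21 the ranges were -0.060 to 0.014 for Katna1, -0.027 to 0.068 for Katnal1 and -0.011 to 0.045 for Katnbl1. At P70 they were -0.14 to 0.090 for Katnal1, -0.12 to 0.15 for Spast and -0.31 to 0.087 for Fign. By age Fign ranged from -0.0033 to 0.24 in WT mice and -0.091 to 0.30 in KO mice. For the interaction they were -0.0030 to 0.12 for Katnal2, -0.16 to 0.071 for Katnal1, -0.080 to 0.19 for Spast and -0.22 to 0.17 for Fign.

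With the replicate block, 913 genes were called by age in KO mice against 1467 without it, 1265 against 1643 in WT mice, and 0 of the 7 in every comparison. Pairing was taken to need a correlation over 0.1 in every pair, which was not met at either age. Same-numbered mice correlated at -0.0091 to 0.260 at P21, 0.0749 to 0.705 at P70 and -0.119 to 0.160 across ages, and at P70 4 of 5 pairs were over 0.1 and correlated best with their own number.

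Depth limits Fignl1 most, since each of its values rests on few reads. The order of levels per kb changed for Spast and Katnal1 with the length used.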
